A study of Mus musculus with 6 samples.

Results

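The acyl-CoA dehydrogenases are a family of flavoenzymes, and 10 of its genes were examined in mouse skin after 7 days of topical rebamipide: Acadvl, Acadl, Acadm, Acads, Acadsb, Acad8, Acad9, Acad10, Acad11 and Ivd. They were taken by gene name, with no threshold on a measured value, and they are 10 of the 21959 genes in the deposited table. RNA-seq was done on full-thickness dorsal skin of wild-type male C57BL/6 mice of 7 weeks, shaved in telogen, the resting phase of the hair cycle. The vehicle group (n = 3 mice) received dipropylene glycol in water, and the rebamipide group (n = 3 mice) received 3% rebamipide, a drug used to protect the gastric mucosa, each day for 7 days. Poly(A) RNA of these skin pieces was sequenced, so each value sums over whatever layers and cells a piece held. Cell markers differed between the libraries, as given below. In such samples fewer cells of a type and less RNA per cell cannot be told apart.

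An acyl-CoA dehydrogenase takes hydrogen from the carbons next to the thioester of an acyl-CoA and passes the electrons, through its FAD cofactor, to the electron transfer flavoprotein and from there to the respiratory chain. This is the opening reaction of each turn of mitochondrial beta-oxidation, the route by which fatty acids are burned, and fat-burning tissues such as heart, muscle, liver and brown fat are rich in it. Members differ in the acyl chain they accept: Acadvl and Acadl act on long chains, Acadm on medium chains and Acads on short chains. Acadsb, Acad8 and Ivd act on the branched acyl-CoAs that arise from isoleucine, valine and leucine. Acad9 resembles Acadvl in sequence but is best known as a factor that helps assemble respiratory complex I, while Acad10 and Acad11 are larger proteins that carry additional domains. The annotation in the deposited table gave FAD binding and fatty acid beta-oxidation to 10 of 10 members and acyl-CoA dehydrogenase activity to 9. It placed 8 in the mitochondrion and Acad11 in the peroxisome.

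The upstream sequences of the 4 straight-chain members are shown because these genes had the largest fold changes of the family and the highest levels after treatment. Each line gives the 250 bases before the start of the gene in RefSeq on GRCm38.p6, 5′ to 3′ on the strand of the gene, which is the minus strand in each case. Capitals mark the hexamer AGGTCA, the core letters that nuclear receptors such as the PPARs and ERRs recognise, or its reverse complement. The Acadvl sequence lies at chr11:70015429-70015678, that of Acadl at chr1:66863310-66863559, that of Acadm at chr3:153944644-153944893 and that of Acads at chr5:115119347-115119596.
Acadvl: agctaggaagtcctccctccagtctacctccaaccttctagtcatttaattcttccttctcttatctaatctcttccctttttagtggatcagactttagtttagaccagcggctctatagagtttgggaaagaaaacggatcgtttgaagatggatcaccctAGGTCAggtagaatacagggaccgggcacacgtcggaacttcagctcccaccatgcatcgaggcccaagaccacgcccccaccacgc
Acadl: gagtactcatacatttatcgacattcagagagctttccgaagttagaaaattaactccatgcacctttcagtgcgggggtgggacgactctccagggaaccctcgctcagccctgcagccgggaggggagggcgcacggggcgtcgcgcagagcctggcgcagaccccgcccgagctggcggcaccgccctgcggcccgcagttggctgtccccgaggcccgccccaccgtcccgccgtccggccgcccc
Acadm: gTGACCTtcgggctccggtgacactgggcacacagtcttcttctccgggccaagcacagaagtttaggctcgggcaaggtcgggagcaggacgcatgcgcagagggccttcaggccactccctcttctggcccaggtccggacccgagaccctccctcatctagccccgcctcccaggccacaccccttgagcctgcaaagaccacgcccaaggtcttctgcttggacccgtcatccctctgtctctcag
Acads: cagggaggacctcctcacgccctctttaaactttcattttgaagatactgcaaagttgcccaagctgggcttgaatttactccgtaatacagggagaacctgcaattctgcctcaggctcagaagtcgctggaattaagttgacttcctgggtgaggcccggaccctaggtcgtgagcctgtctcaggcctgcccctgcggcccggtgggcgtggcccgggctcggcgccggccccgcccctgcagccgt

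The letters AGGTCA, searched on both strands of windows from 250 bases before to 50 after the start, were found in 2 of 9 member windows. In Acadvl they lay at -87 to -82 from the start, and in Acadm, on the reverse strand, at -249 to -244. Among all 32851 windows of the same length, 16.3% held them. The direct repeat AGGTCANAGGTCA, the longer TCAAGGTCA both of which contain the hexamer, and the cAMP response element TGACGTCA, which does not, were in 0 member windows and in 0.0396%, 0.423% and 1.79% of all windows. GC content of the whole 300-base windows, which run past the start, was 50.7% for Acadvl, 70.3% for Acadl, 62.3% for Acadm and 62.7% for Acads, beside a median of 52.7% over all windows. No window was matched for Acad9.

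In the skin treated with rebamipide, 8 of the 10 members were higher than in vehicle skin and 0 were lower, by edgeR's quasi-likelihood test at a Benjamini-Hochberg adjusted p under 0.05 over all 14875 genes tested. Across all genes tested, 14.1% were called higher and 6.51% lower by the same rule. The median log2 fold change of the family was 3.06, beside -0.17 for all genes tested. Acadvl, Acadl, Acadm and Acads rose 13.7-fold to 21.9-fold, and Acad8, Ivd, Acad10 and Acad11 rose 3.71-fold to 9.63-fold. Acadsb and Acad9 did not pass. These calls were lost when either of 2 libraries was left out: in the same test, 0 of 10 members passed without vehicle replicate 2 and 0 without rebamipide replicate 2, with adjusted p-values of 0.0747 to 0.0800 and 0.0573 to 0.0606 for the 8 genes. In DESeq2, 8 passed without either library, and edgeR also called 8 without any of the other 4 libraries.

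The libraries held 38676018 to 39915276 counts in vehicle and 32709801 to 34706852 in rebamipide, and they differed in their makeup of cell markers. Genes of the mitochondrial genome took 2.59% to 5.36% of counts in vehicle and 13.3% to 22% in rebamipide. The summed level of 12 adipocyte markers was 3010 to 9440 normalized CPM (counts scaled to library size with TMM factors) in vehicle and 17400 to 33000 in rebamipide, with 7 of 12 higher in edgeR and 0 lower. Lpl, Car3, Cfd, Retn and Lep did not pass, with log2 fold changes of 2.02, 1.26, 0.34, -0.23 and -0.53. For 8 brown adipocyte markers the sums were 214 to 384 and 5040 to 13000, and 6 of 8 were higher. Most of the rebamipide sums was Ucp1 and Cidea, and Elovl3 had a log2 fold change of -1.45 with an adjusted p of 0.0575 in edgeR. Ucp1, the defining brown fat uncoupler, had 0 counts in the 3 vehicle libraries, which allows up to 0.0641 normalized CPM. The 5 slow and cardiac muscle markers summed to 1.9 to 13 and 5.88 to 224, with 3 of 5 higher, and the 9 fast muscle markers to 5400 to 26700 and 276 to 34200, with none of them called either way by edgeR. The 6 fibroblast markers summed to 12000 to 17700 in vehicle and to 15100, 3500 and 1850 in rebamipide, and the 6 leukocyte markers to 260 to 750 and 166 to 535. The 6 sebaceous gland markers summed to 2690 to 12400 and 39400 to 109000, but most of each sum was Scd1, which fat cells also express and which edgeR called higher. The other 5 had log2 fold changes of -0.12 to -2.87, and of them edgeR called Mc5r lower. Endothelial markers, of which 4 of 6 were higher, went from 221 to 504 up to 1050 to 1560. The 7 basal keratinocyte markers summed to 2510 to 4050 and 144 to 1180, and Krt14, which marks the basal epidermis, had 0 counts in rebamipide replicate 3, which allows up to 0.114 normalized CPM. In that library Krt5 had 4 counts, beside 50427 to 77535 in vehicle, and Itga6 made up 129 of the basal sum of 144. The 6 suprabasal keratinocyte markers summed to 584 to 4260 and 2.37 to 1090. The 7 markers of the growing hair follicle summed to 15100, 6830 and 162 in vehicle, although the skin was shaved in telogen, and to 803, 0.39 and 0 in rebamipide. EdgeR called 0 of the fibroblast, leukocyte, keratinocyte and follicle markers either way. The part of all these differences in the results on the family was not tested. Without rebamipide replicate 3 the same 8 members were called higher by edgeR, with adjusted p-values of 0.0206 to 0.0316, and their log2 fold changes ran from 1.73 for Acad8 to 4.29 for Acadvl.

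Acadvl, the very-long-chain enzyme bound to the inner mitochondrial membrane, rose most. Its gene (ENSMUSG00000018574) lies on chromosome 11 at 69901009 to 69906237, minus strand, in the GRCm39 coordinates of the table. Its FPKM, a level scaled by gene length and library total, was 26.03, 31.78 and 32.86 in vehicle skin and 322.6, 450.7 and 493.4 in treated skin. All 3 rebamipide libraries stood far above the vehicle libraries, and within rebamipide replicate 1 was lowest. In normalized CPM the level went from 65.64 ± 9.63 to 1437 ± 441 (SD, n = 3 each). The log2 fold change was 4.45 (SE 0.37), a 21.9-fold rise with an adjusted p of 0.00939 in edgeR's quasi-likelihood test, larger than that of 99.6% of all genes tested. The gene overlaps Dvl2 on the other strand by 2119 bases, and Dvl2 had a log2 fold change of -0.69 with an adjusted p of 0.236 in edgeR.

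Acadl, the long-chain enzyme of the mitochondrial matrix (ENSMUSG00000026003, chromosome 1, 66869998 to 66902436, minus strand), had the highest FPKM of the family in each library. Its FPKM was 55.27, 75.36 and 87.29 in vehicle and 659.5, 963.1 and 1141 in rebamipide. The groups were well apart, and replicate 1 was the lowest library of each. Its log2 fold change was 4.31 (SE 0.44), 19.9-fold, with an adjusted p of 0.00939 in edgeR. In normalized CPM, which is not scaled by gene length, Acad9 was above Acadl in vehicle replicate 1, and Acadm was above it in vehicle replicates 2 and 3.

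**Figure D1:**
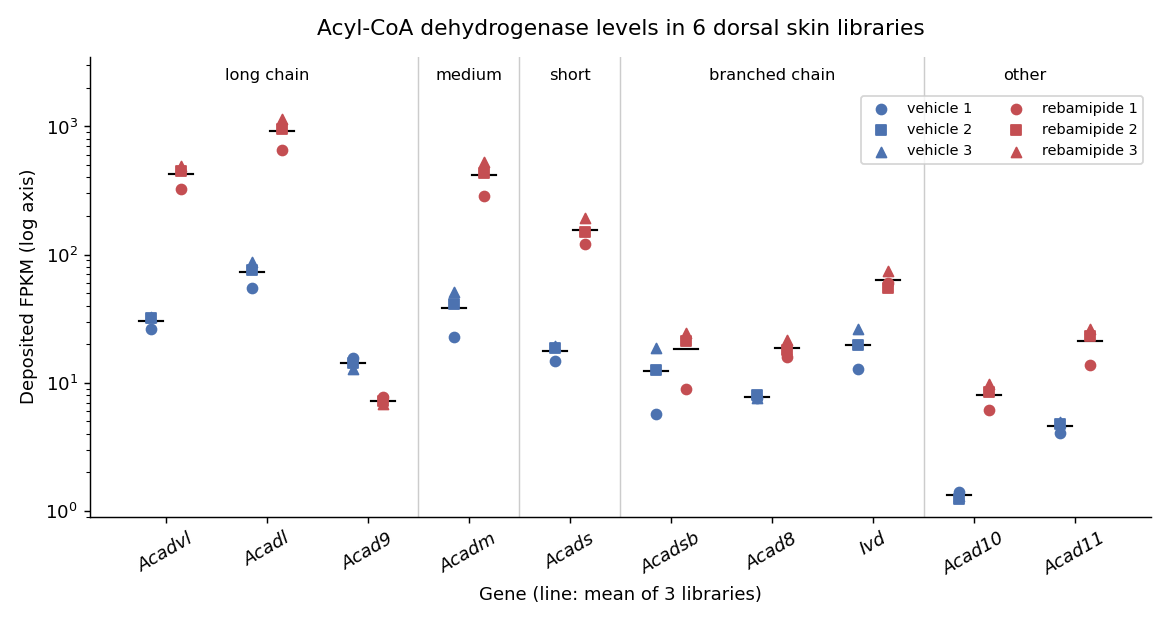
Level of each of the 10 members in each of the 6 libraries, as FPKM on a log axis, with the group mean as a bar. In 8 members the 3 rebamipide libraries lie above the 3 vehicle libraries; for Acadsb the groups overlap, and for Acad9 the rebamipide libraries lie below.

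Acadm, the medium-chain enzyme whose inherited loss is a common disorder of fat burning in people, lies on chromosome 3 at 153627994 to 153650269, minus strand (ENSMUSG00000062908). It was measured at 22.69, 40.98 and 50.72 FPKM in vehicle and at 289.2, 436.0 and 529.6 FPKM in rebamipide. Vehicle libraries varied more than for Acadvl, with replicate 1 well under the others, yet the groups did not overlap. The log2 fold change was 4.10 (SE 0.51), 17.2-fold, with an adjusted p of 0.00993 in edgeR. Of the 50-base stretches of its transcripts, 2.04% occur in another gene, Gm5131, so a few reads could be split between these copies.

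Acads, the short-chain enzyme that works on the last turns of beta-oxidation, is on chromosome 5 at 115248358 to 115257405, minus strand (ENSMUSG00000029545). Vehicle libraries gave 14.72, 18.56 and 19.49 FPKM, and rebamipide libraries 121.3, 150.7 and 191.9 FPKM. The lowest treated library was again replicate 1 and was above every vehicle library. In edgeR the log2 fold change was 3.78 (SE 0.34), 13.7-fold, with an adjusted p of 0.00939.

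Among the branched-chain enzymes, Ivd and Acad8 rose and Acadsb did not pass the test. Ivd, the isovaleryl-CoA dehydrogenase of leucine breakdown (ENSMUSG00000027332, chromosome 2, 118692435 to 118713390, plus strand), had 12.81, 19.86 and 26.03 FPKM in vehicle and 60.02, 54.74 and 74.58 FPKM in rebamipide. Every treated library exceeded the highest vehicle library. Its log2 fold change was 2.31 (SE 0.36), 4.97-fold, with an adjusted p of 0.0124 in edgeR.

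Acad8, the isobutyryl-CoA dehydrogenase of valine breakdown, lies on chromosome 9 at 26885431 to 26910862, minus strand (ENSMUSG00000031969). It was steady in vehicle at 7.638, 8.067 and 7.651 FPKM, and it reached 15.92, 18.04 and 21.66 FPKM in rebamipide. The rise was the smallest of the 8 that passed, with a log2 fold change of 1.89 (SE 0.23), 3.71-fold, and an adjusted p of 0.00993 in edgeR, and the groups did not overlap.

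Acadsb, the short/branched-chain enzyme of isoleucine breakdown (ENSMUSG00000030861, chromosome 7, 131012330 to 131050673, plus strand), was the member whose groups overlapped. Its FPKM was 5.716, 12.67 and 18.61 in vehicle and 8.964, 21.21 and 24.43 in rebamipide. Rebamipide replicate 1 lay below vehicle replicates 2 and 3. The log2 fold change was 1.22 (SE 0.60), with an adjusted p of 0.178 in edgeR's quasi-likelihood test. DESeq2 called the gene higher when rebamipide replicate 1 was left out (log2 fold change 1.60, adjusted p 0.0182). The gene lies wholly within Fgfr2, a growth factor receptor gene on the other strand, whose counts were 7006, 4699 and 2116 in vehicle and 1401, 436 and 257 in rebamipide. Whether counting used the strand is not given in the sources used here, and without strand reads from overlapping genes cannot be told apart.

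Acad10 and Acad11, the large members, rose from low levels. Acad10 (ENSMUSG00000029456, chromosome 5, 121759089 to 121798577, minus strand) had the lowest level of the family in vehicle, at 1.4, 1.247 and 1.308 FPKM, and it stood at 6.071, 8.432 and 9.72 FPKM in rebamipide. No treated library came near the vehicle range. Its log2 fold change was 3.27 (SE 0.31), 9.63-fold, with an adjusted p of 0.00939 in edgeR. Its value is uncertain, because 17.1% of the 50-base stretches of its transcripts occur in another gene, most often its neighbour Acad12, which starts across a gap of 2087 bases.

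Acad11, the member placed in the peroxisome (ENSMUSG00000090150, chromosome 9, 103940576 to 104004924, plus strand), was at 4.068, 4.805 and 4.94 FPKM in vehicle and at 13.63, 23.35 and 26.17 FPKM in rebamipide. The groups were apart, with treated replicate 1 the lowest of its group. The log2 fold change was 2.85 (SE 0.37), 7.22-fold, with an adjusted p of 0.00993 in edgeR. It overlaps Ackr4 by 42777 bases on the other strand, and Ackr4 had a log2 fold change of -1.99 with an adjusted p of 0.125 in edgeR.

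Acad9 was the member with a lower level after treatment. The gene (ENSMUSG00000027710) is on chromosome 3 at 36120128 to 36147002, plus strand. Its normalized CPM was 99.78, 95.05 and 86.81 in vehicle and 68.53, 78.57 and 73.96 in rebamipide, so every treated library was below every vehicle library. The log2 fold change was -0.35 (SE 0.16), with an adjusted p of 0.152 in edgeR's quasi-likelihood test. That value was larger than that of 43.5% of all genes tested, whose median was -0.17. Across all genes tested, 24.0% had every treated library below every vehicle library, as Acad9 did, and 24.5% had every treated library above, which held for 8 of the 10 members. The size of the Acad9 difference depended on scaling, since with total counts alone it was -0.97 with an adjusted p of 0.0132 in edgeR, and in limma on log2(FPKM + 1) it was -0.88 with an adjusted p of 0.0108. For Acad9, 13% of the 50-base stretches occur in another gene, most often Gm43079.

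**Figure D2:**
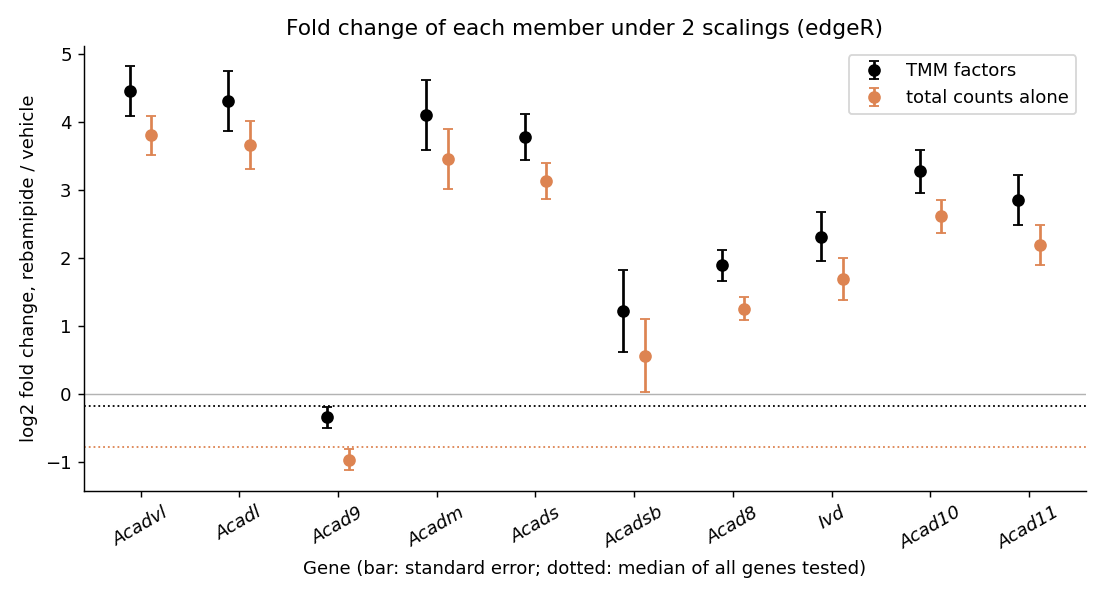
Log2 fold change of each member, rebamipide over vehicle, with its standard error, from edgeR (n = 3 per group), with TMM factors and with total counts alone. Dotted lines give the median of all genes tested under each scaling. The points do not mark which genes passed. Values run from 4.45 for Acadvl to -0.35 for Acad9 with TMM factors, and from 3.8 to -0.97 with total counts alone.

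As a whole, the family took 0.0814% ± 0.0179 of all counts in vehicle and 0.584% ± 0.145 in rebamipide (SD, n = 3 each). The summed FPKM of the 10 members was 165.9, 227.6 and 261.7 in vehicle and 1505, 2133 and 2519 in rebamipide, so the treated libraries lay apart from all vehicle libraries. The order of members by level also differed. In vehicle skin the mean FPKM ran from Acadl through Acadm, Acadvl, Ivd, Acads, Acad9, Acadsb, Acad8 and Acad11 to Acad10. Of the neighbours in this order, only Acadl and Acadm, Acad8 and Acad11, and Acad11 and Acad10 had ranges that did not overlap. In treated skin the order was Acadl, Acadvl, Acadm, Acads, Ivd, Acad11, Acad8, Acadsb, Acad10 and Acad9. There Acadl stood clear of Acadvl, Acadm of Acads, Acads of Ivd and Ivd of Acad11, while the other neighbours overlapped. Acad9 thus was the sixth member by mean FPKM in vehicle and the last in rebamipide.

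By substrate class, the long-chain enzymes Acadvl, Acadl and Acad9 made up 54.2% ± 3.86 of the family's FPKM in vehicle and 65.83% ± 0.751 in rebamipide. Acadl alone held a share of 33.1% to 33.4% in vehicle libraries and 43.8% to 45.3% in rebamipide libraries. The share of Acadm was 13.7% to 19.4% and 19.2% to 21%, which overlap, and that of Acads was 7.45% to 8.88% and 7.06% to 8.06%, which also overlap. The branched-chain enzymes held 17.87% ± 2.1 in vehicle and 4.947% ± 0.63 in rebamipide. Acad9 held 4.9% to 9.38% in vehicle and 0.271% to 0.516% in rebamipide.

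**Figure D3:**
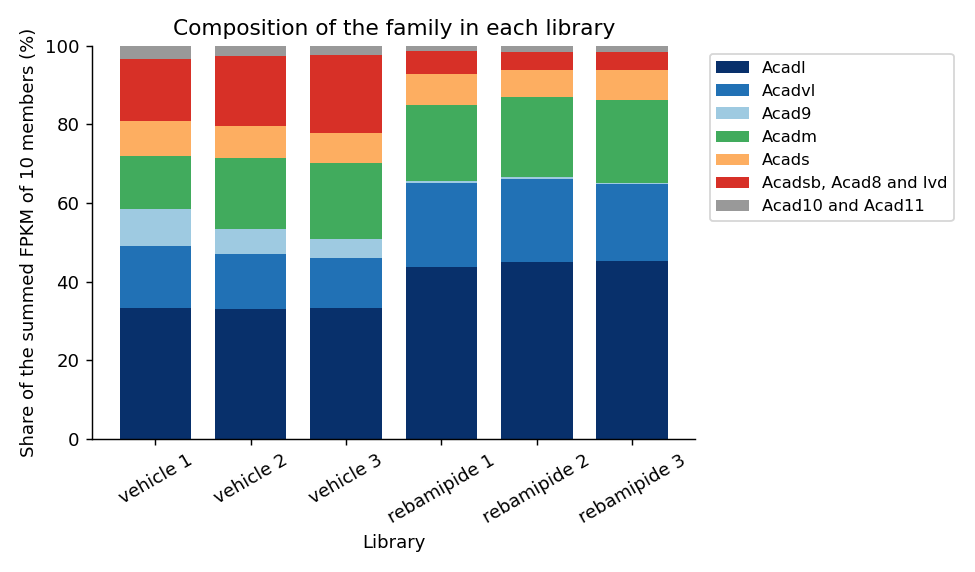
Share of the family's summed FPKM held by each substrate class in each of the 6 libraries, as stacked bars from 0 to 100%. The branched-chain share is 15.8% to 20% in vehicle and 4.41% to 5.64% in rebamipide.

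Ratios within a library need no scaling between libraries, so each member was set against Acadvl. Because Acadvl rose most of the 10, the choice of this reference makes the ratios lower on average after treatment, and only their sizes are informative. The log2 fold change of Acadvl also exceeded that of 99.6% of all genes tested. The share of all genes with a lower ratio to it was not computed. The log2 ratio of Acadl to Acadvl was 1.09, 1.25 and 1.41 in vehicle and 1.03, 1.1 and 1.21 in rebamipide, and it changed by -0.14 on average. That of Acadm was -0.2, 0.37 and 0.63 in vehicle and -0.16, -0.05 and 0.1 in rebamipide, a difference of -0.30. The ranges of both ratios overlapped between groups, with p = 0.3 and p = 0.4 in a two-sided exact permutation test (adjusted over 9 ratios, 0.337 and 0.4). The other 7 ratios did not overlap between groups, and each was lower in rebamipide: the difference was -0.67 for Acads, -1.20 for Acad10, -1.65 for Acad11, -2.05 for Ivd, -2.55 for Acad8, -3.19 for Acadsb and -4.76 for Acad9. Their exact permutation p was 0.1, the smallest that 3 against 3 libraries can give, and 0.129 after adjustment over the 9 ratios.

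Of the adipocyte markers, 7 of 12 rose with the family, and the members were also set against 2 of these 7: Plin1, the lipid droplet coat protein of fat cells, and Adipoq, the fat cell hormone. Plin1 had normalized CPM of 96, 188 and 338 in vehicle and 948, 1230 and 1620 in rebamipide. Against Plin1 the log2 ratio of Acadvl was -0.02, -0.65 and -1.42 in vehicle and 0.77, 1.19 and 0.91 in rebamipide, a difference of 1.65. The ratio was also higher without overlap for Acadl, by 1.52, for Acadm, by 1.35, and for Acads, by 0.99. It overlapped between groups for Acad10, Acad11, Ivd and Acad8, whose differences ran from -0.90 to 0.45, and it was lower without overlap for Acadsb, by -1.54, and for Acad9, by -3.11. Against Adipoq the same 4 straight-chain members were higher by 1.58 to 2.25 without overlap, and so was Acad10, by 1.05. Acadsb and Acad9 were lower, by -0.95 and -2.51. These ratios were not tested, and they depend on the reference. The median log2 fold change of all genes tested, -0.17, was below that of both references, so a gene at that median would also have a lower ratio. The share of all genes without overlap was not computed for these ratios. Other adipocyte markers rose more than Plin1 and Adipoq, whose log2 fold changes were 2.61 and 2.05: Lipe had 3.05, Fabp4 3.31 and Pnpla2 3.89, the last of which is above the 3.78 of Acads. Of the brown adipocyte markers, Dio2 had 3.62, Cox7a1 3.83, Cox8b 4.16, Cidea 6.23 and Otop1 9.99. Ppargc1a, at 2.3, and Elovl3, at -1.45, did not pass.

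**Figure D4:**
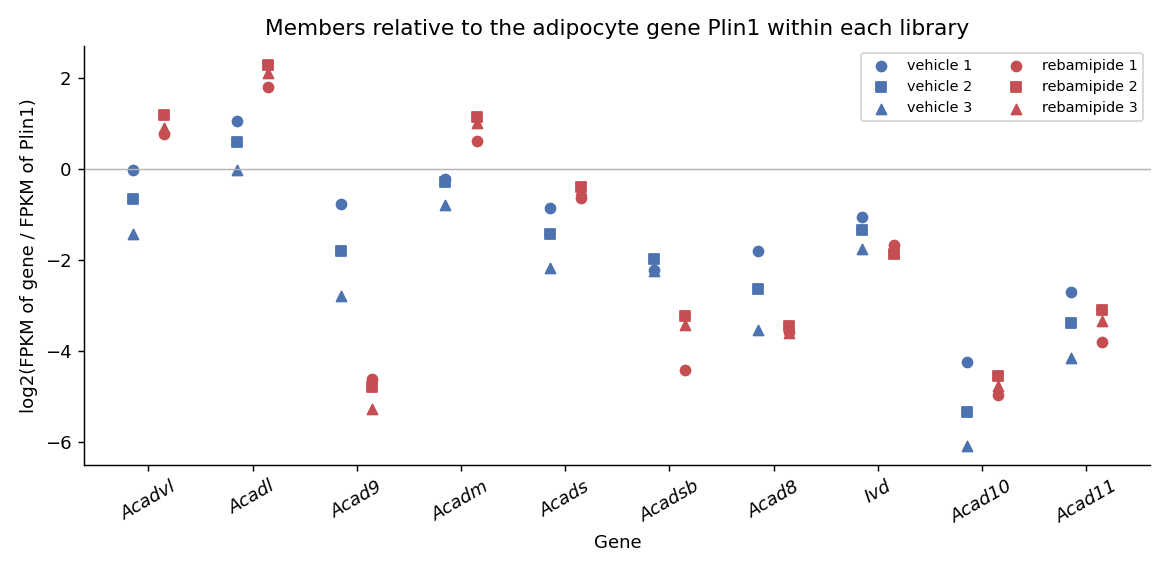
Log2 ratio of each member's FPKM to that of Plin1 within each library, vehicle beside rebamipide. Acadvl, Acadl, Acadm and Acads are higher in all 3 rebamipide libraries than in any vehicle library, and Acadsb and Acad9 are lower.

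The enzymes around the family were then counted in lists by function. Without vehicle replicate 2, or without rebamipide replicate 2, the number of genes that edgeR called higher was 0 in each of the 8 lists. The electron transfer flavoprotein route, which takes electrons from these enzymes, had 5 of 5 genes higher in edgeR. Etfa, a flavoprotein subunit, went from 107.8 ± 20 to 981.6 ± 373 normalized CPM (log2 fold change 3.19), and Etfdh, which hands the electrons to ubiquinone, from 73.58 ± 10.6 to 851 ± 329 (3.53). Etfb, the other flavoprotein subunit, was low, at 3.05 ± 1.12 and 37.18 ± 13.5 (3.61). The median log2 fold change of the list was 3.19, close to the 3.06 of the family.

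Of 11 genes for the later steps of mitochondrial beta-oxidation, 9 were higher and 0 lower, with a median of 3.51. Hadhb and Hadha, the subunits of the trifunctional protein that carries out the next steps on long chains, had log2 fold changes of 4.46 and 3.26. Acaa2, a thiolase, had 4.37, and Eci1, an enoyl-CoA isomerase, had 3.96. Echdc1 and Echdc2 did not pass, at 0.20 and 0.90. Of 7 carnitine genes, which bring long chains into the matrix, 5 were higher and 0 lower, with a median of 2.60. Slc25a20, the carnitine carrier, had 4.10, Cpt2, the inner membrane transferase, had 3.66, and Crat, which acts on acetyl groups, had 2.56. The outer membrane transferases differed: Cpt1b, the form of muscle and brown fat, had 5.74 from a level of 0.1984 ± 0.149 normalized CPM in vehicle, while Cpt1a had -0.83 with an adjusted p of 0.167 in edgeR.

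Of 22 genes of branched-chain amino acid breakdown, the pathway of Ivd, Acad8 and Acadsb, 19 were higher and 0 lower, with a median of 2.41. Pccb, a propionyl-CoA carboxylase subunit, had a log2 fold change of 3.31, Echs1, the short-chain enoyl-CoA hydratase, 3.29, Bckdha, a subunit of the branched-chain keto acid dehydrogenase, 3.13, and Acat1, a thiolase, 2.55. Bcat1, Bcat2 and Ppm1k did not pass. The value of Ivd, 2.31, lay near the median of this list, and those of Acad8, 1.89, and Acadsb, 1.22, below it. Of 5 FAD supply genes, 3 were higher and 0 lower: Rfk, riboflavin kinase, had 1.51, Flad1, which makes FAD, had 1.55, and Slc52a2, a riboflavin transporter, had 1.77. Slc52a3, another riboflavin transporter, had -1.93 with an adjusted p of 0.0595 in edgeR.

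Acad9 can be set beside the proteins it works with in complex I assembly. Of 5 such genes, 4 were higher in edgeR and 0 lower, with a median log2 fold change of 1.58. Ecsit had 2.04, Ndufaf1 1.75, Tmem186 1.58 and Timmdc1 1.30, and Tmem126b had 0.89 with an adjusted p of 0.0755. Acad9, at -0.35, was below all 5.

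Related genes outside the 10 gave a mixed picture, with 3 of 6 higher in edgeR and 0 lower. Gcdh, the glutaryl-CoA dehydrogenase of lysine breakdown, went from 24.25 ± 3.46 to 100 ± 23.5 normalized CPM (log2 fold change 2.04), and Acad12, the neighbour of Acad10, from 12.08 ± 5.4 to 100.9 ± 32.8 (3.06). Acoxl had -2.60 with an adjusted p of 0.121 in edgeR.

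Nuclear receptors and coactivators that are known to drive these genes were higher for 4 of 10, and 0 were lower. Ppara, the receptor that switches on fat oxidation, had a log2 fold change of 5.17, Ppargc1b 3.72, Pparg 2.73 and Esrra 2.27. Esrrg had 3.00 with an adjusted p of 0.0669 in edgeR, and Rxra had -0.20 with an adjusted p of 0.481.

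**Figure D5:**
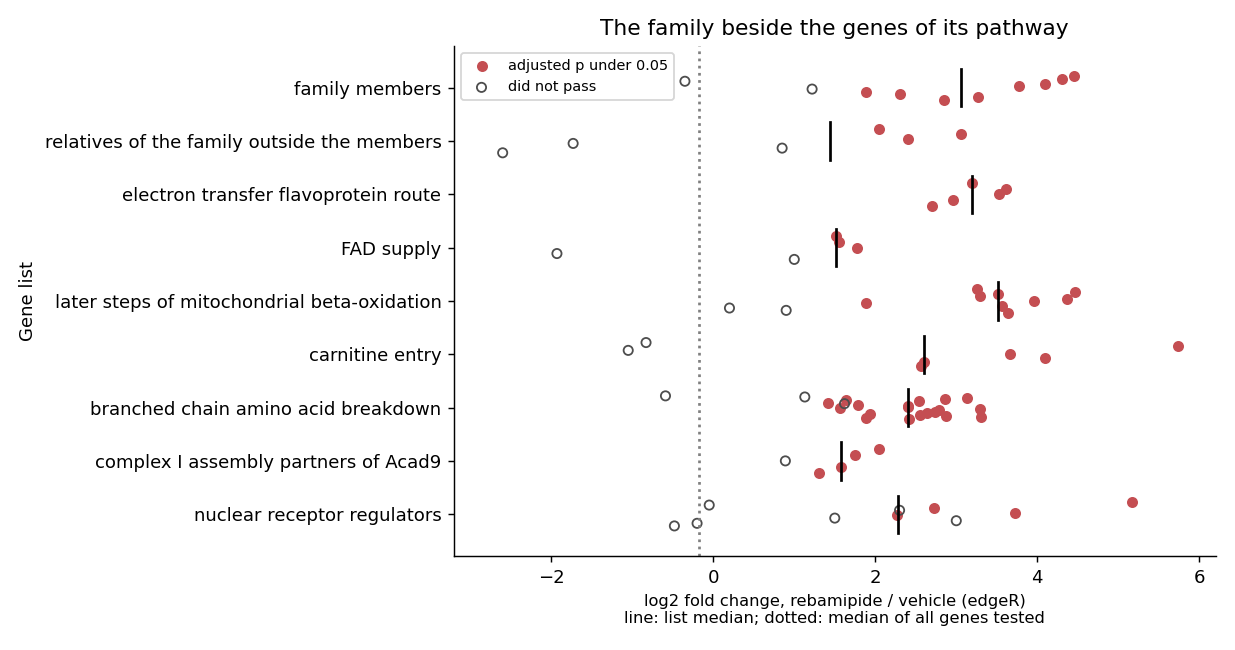
Log2 fold change of each gene in the family and in 8 lists of related genes, rebamipide over vehicle, from edgeR, with the list median as a line and the median of all genes tested as a dotted line. The list medians run from 1.45 for relatives of the family to 3.51 for the later steps of beta-oxidation.

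Among the 1671 tested genes annotated to the mitochondrion, 745 were higher and 42 lower in edgeR, with a median log2 fold change of 0.86. Scaled by total counts alone, edgeR called 554 higher and 223 lower and the median was 0.23. DESeq2, which tested 1765 such genes, called 835 higher and 128 lower. Without vehicle replicate 2, edgeR called 0 of 1676 such genes higher, and without rebamipide replicate 2 it called 1 of 1680. Acadvl had a larger value than 98.9% of the 1671 genes, Acadl than 98.3%, Acadm than 97.9% and Acads than 97%. Acad10 and Acad11 exceeded 94.9% and 92%, Ivd 85.6% and Acad8 77.7%. Acadsb exceeded 60.3% and Acad9 19.7%, so these members sat nearer to the middle and the lower end of mitochondrial genes.

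The genes whose profile over the 6 libraries was most like that of a member were found by the root mean square difference of centred log2(CPM + 0.5) values among 13378 genes. For Acadvl they included Hadhb (0.0548) and Acadl (0.125). For Acads they were Cpt2 (0.0821), Akap1 (0.083) and Sh2b2 (0.1), and for Acad10 Hadha (0.0885), Gpat4 (0.092) and Acot2 (0.0933). For Ivd they were Mccc2 (0.102), a subunit of the next enzyme in leucine breakdown, Cdh5 (0.105) and Vegfb (0.115). Acadl had Rbpms2 (0.0699), Hadhb (0.0948) and Nepn (0.0986), of which Nepn was low in vehicle and had a fitted log2 fold change of 6.31 beside 4.31 for Acadl, so that its distance depends on the pseudocount, and Acadm had Mcrip2 (0.0645), Immp2l (0.0805) and Slc24a3 (0.0836). Acad11 had Galm (0.0639), Adcy6 (0.0828) and Chn1 (0.0962), and Acad8 had Mrpl30 (0.0421), a mitochondrial ribosome protein, Isoc2b (0.0474) and Tmem94 (0.0479). Acadsb had more distant neighbours, Smim10l1 (0.13), Klf9 (0.178) and Celf2 (0.182). The nearest genes to Acad9 were Cdkn1b (0.0485), Vezt (0.0496) and Prpf18 (0.0497), and its nearest member, Acadsb, stood at 1.09. All these likenesses are over the same 6 libraries and share their difference between groups.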

How the data were processed

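RNA-seq of dorsal skin was analysed for 3 vehicle and 3 rebamipide mice. The authors deposited raw counts, whole reads per gene with no normalization, and the FPKM deposited by the authors equal counts divided by gene length and library total. The submitters' processing notes name fastp 0.22.0, HISAT2 2.1.0, HTSeq 0.9.1 and GRCm39, and the paper names DESeq2. The strand setting of the counting is not given in the sources used here.

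Counts were tested in R 4.3.3 with edgeR 4.0.16 (TMM factors, filterByExpr, quasi-likelihood test, Benjamini-Hochberg adjustment over 14875 genes). The code was first run on simulated counts with the same noise setting for every gene and as many raised as lowered genes. That setting is simpler than these data, and its outcome is not reported here. DESeq2 1.42.0 and limma 3.58.1 served as alternatives. The members and lists were chosen with earlier results of these data known. Named genes were all members, of each list the 3 with the largest change and the 2 with the highest level (other members of a list that are named did not pass or were picked after their values were seen), the 3 genes most like a member, and genes overlapping a member; some genes under this rule are not reported here. Likeness was computed for genes with a mean of at least 50 counts. Ratios within libraries used FPKM and a two-sided exact permutation test (SciPy 1.17.1). Replicates differed beyond sampling noise, and each is a separate mouse per the paper. Limits on a count of 0 use 3 counts and cover counting error only. Promoter windows were matched for 9 of 10 members. They come from GRCm38.p6 and were not mixed with the coordinates of the table. Shared stretches of 50 bases were counted in GENCODE M21 transcripts.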

Additional observations from a re-analysis of the deposited data

How the results depend on the processing

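The 10 members kept their direction in all 27 alternatives run, and 8 were called higher under every full-data alternative except that the replicate block gave 9. With 1 library left out, edgeR called 0 to 8 members higher. The low end came without vehicle replicate 2, when 0 of 14964 genes passed and 4116 had an unadjusted p under 0.05, and without rebamipide replicate 2, when 1 of 15335 genes passed and 4062 did. Without either library limma-voom called 5 members and DESeq2 8; these 2 fits with a library left out were chosen after seeing the data. The cause was not tested. Members called lower numbered 0, but 1 (Acad9) with total counts alone and 1 in limma on log2(FPKM + 1). With total counts alone the median of all genes was -0.778 in place of -0.175, and the members ran from -0.97 for Acad9 to 3.80 for Acadvl.

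Counts of genes called higher with 1 library left out ran from 0 to 4 for the relatives, 0 to 5 for the electron transfer flavoprotein route, 0 to 4 for FAD supply, 0 to 10 for the later steps, 0 to 5 for carnitine entry, 0 to 20 for branched-chain amino acid breakdown, 0 to 5 for the partners of Acad9 and 0 to 5 for the nuclear receptor regulators. The low ends came without vehicle replicate 2 or rebamipide replicate 2. Genes called lower numbered 1 for the relatives in DESeq2, 1 for FAD supply in DESeq2, in limma-voom and with total counts alone and 0 to 1 with a library left out, 1 for carnitine entry in DESeq2 and with total counts alone and 0 to 1 with a library left out, and 2 for the regulators with total counts alone.

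Over all genes, samples with the same number did not deviate together (r of -0.073, -0.0282 and -0.0392). With 3 libraries per group this cannot exclude a pairing, and the labels state none. The family's summed FPKM rose from replicate 1 to replicate 3 in both groups. With the replicate block, Acadsb was called (log2 fold change 1.22, SE 0.19, adjusted p 0.0327 in edgeR), and over all genes 1432 were higher and 855 lower, beside 2093 and 968 without it. Over all genes, total counts alone gave 1258 higher and 3752 lower. Limma on log2(FPKM + 1) gave 1379 and 4692 of 14953 genes, and DESeq2 called 2661 higher and 2552 lower of 17835. Acadsb was also called by DESeq2 without rebamipide replicate 1 (1.60, adjusted p 0.0182). The lowest level of a member in any library was 1.247 FPKM (Acad10).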
